A study of Homo sapiens with 2 samples.

Results

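These data describe 257 places at the starts or ends of protein-coding genes where PHF8 chromatin immunoprecipitation (ChIP-seq) gave a peak both in control cells and in cells overexpressing APOC2, and where the peak height rose little or fell with APOC2. They were drawn from 1003 pairs of overlapping peaks whose vector peak had its midpoint within 1 kb of the annotated start or end of a protein-coding RefSeq gene (GRCh38), and from 3300 pairs in the whole series. The cells were RKO, an established human colon carcinoma line, transfected with an empty vector or with an APOC2 overexpression plasmid. APOC2 encodes an apolipoprotein. Both chromatin samples were precipitated with the same lot of a PHF8 antibody. There was 1 library per condition, with no replicate of either, so no difference could be set against variation between cultures and no test between conditions was made. The labels do not say whether the transfection was transient, and neither how much APOC2 the cells made nor how much PHF8 they held was measured here.

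PHF8 is a histone lysine demethylase of the Jumonji family. Its PHD finger binds histone H3 trimethylated at lysine 4, the mark of active promoters, and its catalytic domain removes repressive methyl marks from histones H3 and H4. It is known to sit at the start sites of many active genes with CpG-rich promoters.

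The measure behind the choice was the pileup, the number of overlapping fragments at a peak summit. The APOC2 pileups, which are whole numbers, were divided by 0.8326 to bring them to the depth of the vector table. This factor rests on 1 common control library for both peak tables, which the labels do not state. A pair was kept where the log2 ratio of the depth-scaled APOC2 pileup to the vector pileup was at most 0.35, a factor of up to 1.27. No lower limit was set, so falls of any size were kept, down to a log2 ratio of -0.49. The 257 pairs were thus selected on their pileups in both libraries, so the levels and ratios below describe them and are no evidence about them. The 257 pairs are 25.6% of the 1003. Over all 3300 pairs of the series, 64.2% lay at or under the same threshold.

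In 4 of the 257 pairs, the tallest among them, the vector peak lay over a gene for a structured non-coding RNA that adjoins a coding gene. The highest vector pileup belonged to the pair assigned to CCDC107 (vector peak at chromosome 9, 35657730 to 35658023; APOC2 peak 35657733 to 35658018). Both peaks coincided almost exactly with RMRP, the gene of the RNA component of RNase MRP (35657750 to 35658019). The pileup there was 114 for vector and 103 for APOC2, or 124 after depth scaling. The pair assigned to GSTA4, a glutathione transferase gene, lay on RN7SK, whose RNA holds the elongation factor P-TEFb inactive (chromosome 6, 52995620 to 52995951). The vector peak ran from 52995621 to 52995915, with a pileup of 55.4, against 56 in the APOC2 library and 67.3 after depth scaling. The pair assigned to PARP2, a poly(ADP-ribose) polymerase gene, lay on RPPH1, the RNA component of RNase P (chromosome 14, 20343071 to 20343411), with pileups of 47.5 and 44, or 52.8 scaled. The pair assigned to ACAA2, a mitochondrial thiolase gene, lay on SCARNA17, a small Cajal body RNA (chromosome 18, 49814023 to 49814443), with 25.7 and 17, or 20.4 scaled. RMRP, RN7SK and RPPH1 are known to be transcribed by RNA polymerase III.

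For CCDC107 and GSTA4, the promoter of the coding gene is shown because it stands next to the RNA gene that the peak covered. Each run gives the 250 bases before the coding gene's start in RefSeq (GRCh38.p14), 5′ to 3′ on the strand of that gene, and capitals mark a match, on either strand, to 1 of the 8 short motifs described further on. CCDC107 has its window at chr9:35658042-35658291 on the plus strand, and GSTA4 at chr6:52995285-52995534 on the minus strand.
CCDC107: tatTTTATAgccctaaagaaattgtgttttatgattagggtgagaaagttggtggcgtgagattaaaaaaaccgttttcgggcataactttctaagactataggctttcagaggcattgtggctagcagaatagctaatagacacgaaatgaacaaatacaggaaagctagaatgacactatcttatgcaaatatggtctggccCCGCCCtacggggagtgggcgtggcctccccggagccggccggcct
GSTA4: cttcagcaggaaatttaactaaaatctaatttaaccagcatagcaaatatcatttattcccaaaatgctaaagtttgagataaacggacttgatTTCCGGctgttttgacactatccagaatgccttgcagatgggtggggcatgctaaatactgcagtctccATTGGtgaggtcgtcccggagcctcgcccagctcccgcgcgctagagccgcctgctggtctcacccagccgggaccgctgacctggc
The CCDC107 window began 23 bases past the highest annotated coordinate of RMRP. Its first capitals are a TATAAA match on the strand opposite to CCDC107, at 35658045 to 35658050, 26 bases from RMRP. The GSTA4 window lay 86 bases from RN7SK. Neither run of 250 bases lay under its vector peak. The peaks of these pairs thus covered the RNA genes and not the bases before the start of the coding genes.

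The 257 pairs had a median vector pileup of 28.7 fragments (95% interval 27.7 to 29.7, range 11.9 to 114) and a median depth-scaled APOC2 pileup of 30.03 (28.8 to 31.2, range 10.8 to 124). The other 746 pairs had medians of 29.7 and 48.0. In the vector library both sets had nearly the same median height. A gap between the sets follows from the choice, which used both pileups, and here it lay in the APOC2 library. The log2 ratios of the 257 ran from -0.49 to 0.35 with a median of 0.12, and 78 of them were below 0, which is 7.78% of all 1003 pairs. Without the depth factor the median was -0.14, so the direction of the typical small difference follows the scaling. The plot of pileups shows the 257 pairs along the line of equal height, with the other pairs above.

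**Figure D1:**
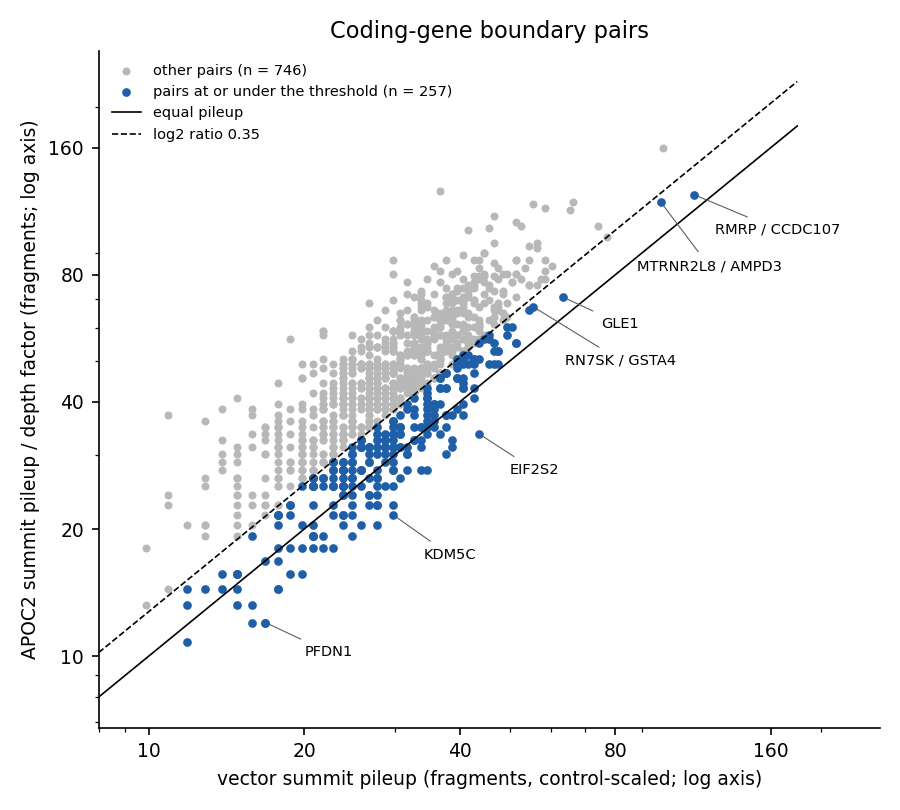
Summit pileup in the vector library (x axis, fragments, log scale) against the depth-scaled APOC2 pileup (y axis, fragments, log scale), with 1 point for each of 1003 coding-gene boundary pairs. Blue points are the 257 pairs at or under the log2 ratio of 0.35 (dashed line), grey points the other 746, and named pairs are marked with lines; the solid line is equal pileup.

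Counting error is wide at these pileups. For each pair, a 95% exact conditional binomial interval of the log2 ratio was computed from the fragments of both summits. This interval held 0 for all 257 pairs, and for 247 of them it also held 0.57, the median ratio of all 1003. It lay wholly at or under the threshold for 1 pair, at EIF2S2, which encodes a subunit of the initiation factor that brings the initiator tRNA to the ribosome. The EIF2S2 pair (chromosome 20, 34111883 to 34112213) had a vector pileup of 43.5 and an APOC2 pileup of 28, or 33.6 after depth scaling. Its log2 ratio was -0.37 (-1.11 to 0.34). Of the other 746 pairs, 69 had an interval wholly above 0.35. Most single pairs therefore could not be placed on 1 side of the threshold at this depth. FCHO2, CDKN2AIP and SNRPA1 lay just inside it, with log2 ratios of 0.35, 0.35 and 0.35, and DPH7, RAD54B and ATP5F1B just outside, with 0.35, 0.35 and 0.36. These intervals, and all others given here, cover counting error only, since there was 1 library per condition. The intervals of the ratio take each fragment as independent. Fragments that carry no molecular identifier may be copies of each other, so these intervals may be too narrow.

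Peaks over genes of small structured RNAs, such as RMRP and RN7SK, were counted in all pairs, a grouping made after the values had been seen. Of the 257 pairs, 4 (1.56%, 95% Wilson interval 0.607 to 3.93%) had a gene of a small structured RNA under the vector peak, and of the other 746 pairs 0 did, which allows up to 0.512% by the same interval. Away from coding boundaries, 4 further shared pairs lay on such genes outside ribosomal DNA. RN7SL1 and RN7SL2, the RNAs of the signal recognition particle, had log2 ratios of 0.17 and 0.04, and SNORD3A, the U3 small nucleolar RNA, had -0.22. TERC, the telomerase RNA, stood apart with 0.76, from a pileup of 27.7 in the vector to 46.8 scaled in the APOC2 library. Another 15 pairs lay on ribosomal RNA genes of chromosome 21, with log2 ratios between 0.08 and 0.26. All 15 ribosomal pairs and 7 of the 8 others were at or under the threshold, as were 64.2% of all 3300 pairs. The ribosomal pairs lie on copies of 1 repeat and share their sequence. The ribosomal pileups in the vector library were between 229.6 and 387.9, far above those at coding boundaries. Their fold enrichment over local background in that library was only 2.25 to 4.58, below the median of 5.28 of the 257 pairs. The height at ribosomal DNA thus went with a high local background. How repeated ribosomal DNA copies were handled in alignment is not given in the sources used here.

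**Figure D2:**
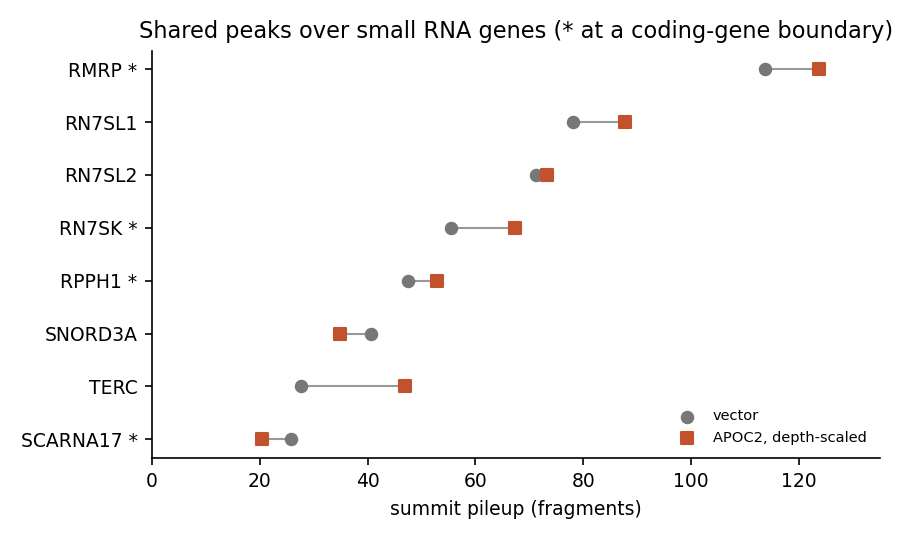
Summit pileup (x axis, fragments) of the 8 shared pairs whose vector peak lay over a small structured RNA gene outside ribosomal DNA, with grey circles for the vector and orange squares for the depth-scaled APOC2 library. Stars mark the 4 pairs at coding-gene boundaries; TERC is the pair with the widest gap, from 27.7 to 46.8.

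Among the other strong pairs, those at INTS2 and ZNF786 lay at a listed start and that at AMPD3 on a pseudogene. Those at GLE1, CIBAR1 and ZNF623 were also within 1 kb of a gene boundary. Whether it was a start or an end was not determined, since no listed start was matched for these genes. The pair assigned to AMPD3, an AMP deaminase gene, had a vector pileup of 98.0 against 99 for APOC2, or 119 scaled, and the highest fold enrichment over local background of the set, 37.6 and 43.0. Its vector peak (chromosome 11, 10507901 to 10508714) covered MTRNR2L8, annotated as a pseudogene and known to resemble a mitochondrial ribosomal RNA gene, and the microRNA gene MIR4485. It was also 1 of 4 pairs, of 203 that could be checked, whose midpoint was over 1 kb from any listed start of its coding gene. The others were at TMEM232, AGTPBP1 and FAM120A. GLE1, an mRNA export factor gene, had 63.3 and 59, or 70.9 scaled. CIBAR1 had 54.4 and 55, or 66.1 scaled, under a vector peak of 1133 bp. INTS2, a subunit of the Integrator complex that processes small nuclear RNA, and ZNF786, a zinc finger gene, both had 51.5 and 46, or 55.2 scaled. ZNF623 had 50.5 and 50, or 60.1 scaled. After depth scaling the APOC2 value was the higher in all 8 of the strongest pairs, with log2 ratios between 0.10 and 0.28, and each of their intervals held 0. By fold enrichment the 8 log2 ratios ran from -0.23 at INTS2 to 0.56 at ZNF786. CCDC107 was also below 0, with -0.11, and CIBAR1, with 0.42, was above the threshold of 0.35 by this measure, as was ZNF786.

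The 8 pairs with the lowest ratios had vector pileups from 15.8 to 43.5, on both sides of the median of 28.7 of the 257 pairs. The tallest of them was EIF2S2, described above. COBLL1 and PFDN1, the gene of a prefoldin chaperone subunit, each had a vector pileup of 16.8 and an APOC2 pileup of 10, or 12.01 scaled, and a log2 ratio of -0.49 (-1.78 to 0.72). The COBLL1 peaks overlapped by 3 bp and their summits were 194 bp apart, so they need not mark the same site. KDM5C, a demethylase of histone H3 lysine 4, shared its pair with IQSEC2 (chromosome X, 53224939 to 53225176). It had 29.7 and 18, or 21.6 scaled, and a log2 ratio of -0.46 (-1.39 to 0.43). The pair within 1 kb of CDNF, HSPA14 and MSANTD7 had 27.7 and 17, or 20.4 scaled, with a log2 ratio of -0.44. CWC22, a splicing factor gene, had 15.8 and 10, or 12.01 scaled. NRARP, a feedback inhibitor gene of Notch signalling, had 29.7 and 19, or 22.8 scaled. EBAG9 had 24.7 and 16, or 19.2 scaled. In all 8 of these pairs the APOC2 library had the lower value after scaling, which follows from their choice by lowest ratio. Each of their intervals held 0. By fold enrichment EBAG9 had a positive log2 ratio, 0.09. TBC1D12, whose log2 ratio was -0.34, was the 1 pair of the 257 where a taller APOC2 peak also overlapped the vector peak and had not been paired.

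**Figure D3:**
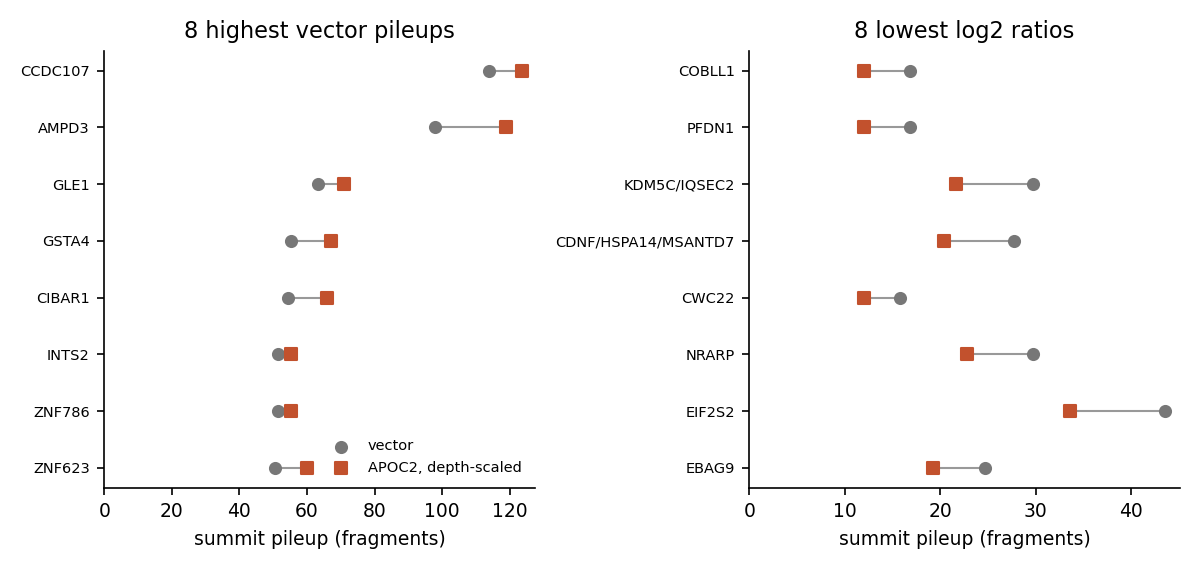
Summit pileup (x axis, fragments, from 0) in the vector (grey circles) and depth-scaled APOC2 library (orange squares) for the 8 pairs with the highest vector pileup (left) and the 8 with the lowest log2 ratio (right), labelled by their coding genes. APOC2 is to the right of vector in every pair on the left and to the left of it in every pair on the right. The latter follows from the choice by lowest ratio.

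Promoters from the strong and the low ends are shown to compare their base composition. INTS2 (chr17:61927983-61928232) stands for the strong pairs, and COBLL1 (chr2:164841824-164842073), PFDN1 (chr5:140303102-140303351) and KDM5C (chrX:53225208-53225457) for the lowest ratios. All 4 genes are on the minus strand, and the runs again give the 250 bases before the start with motif matches in capitals.
INTS2: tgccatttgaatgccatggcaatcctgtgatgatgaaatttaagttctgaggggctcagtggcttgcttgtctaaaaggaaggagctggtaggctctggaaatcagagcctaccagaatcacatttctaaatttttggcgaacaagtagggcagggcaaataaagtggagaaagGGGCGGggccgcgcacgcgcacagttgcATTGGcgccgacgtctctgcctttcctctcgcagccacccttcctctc
COBLL1: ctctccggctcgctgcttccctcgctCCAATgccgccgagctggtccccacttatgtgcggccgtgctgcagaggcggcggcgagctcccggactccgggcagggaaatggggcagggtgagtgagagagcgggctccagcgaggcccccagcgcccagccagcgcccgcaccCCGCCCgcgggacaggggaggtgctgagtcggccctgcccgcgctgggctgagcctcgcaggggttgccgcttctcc
PFDN1: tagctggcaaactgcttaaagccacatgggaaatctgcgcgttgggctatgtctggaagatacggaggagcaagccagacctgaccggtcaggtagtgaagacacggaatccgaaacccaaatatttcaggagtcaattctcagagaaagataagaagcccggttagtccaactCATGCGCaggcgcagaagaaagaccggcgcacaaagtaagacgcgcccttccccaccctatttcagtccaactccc
KDM5C: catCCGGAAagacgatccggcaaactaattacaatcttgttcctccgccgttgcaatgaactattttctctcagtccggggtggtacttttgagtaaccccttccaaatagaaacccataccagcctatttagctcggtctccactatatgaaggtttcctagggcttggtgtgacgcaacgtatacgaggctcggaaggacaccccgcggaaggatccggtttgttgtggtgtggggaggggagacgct
COBLL1 had a GC content of 74.0% and 25 CpG dinucleotides in its run, and INTS2, PFDN1 and KDM5C had 52.0%, 52.0% and 51.2%, with 10, 13 and 15 CpG. The capitals are an SP match in INTS2 and COBLL1, an NF-Y match in the same genes, an NRF1 match in PFDN1 and an ETS match in KDM5C. The whole PFDN1 run and 93 bases of the COBLL1 run lay under the vector peak, whereas the INTS2 and KDM5C vector peaks lay downstream of the start. The APOC2 peaks of INTS2 and KDM5C, which ended at 61927994 and 53225330, reached into their runs.

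Almost all pairs that could be oriented were within 1 kb of a listed start. Those that were not need not be at gene ends, since TMEM232 and AGTPBP1 lay upstream of their nearest listed start. Starts were taken from the RefSeq promoter table, which was matched for 203 of the 257 pairs. None of the 31 pairs on chromosome 8, nor of the 142 others there, was among those matched, so the positions relative to starts and the sequence values below leave out that chromosome. In 199 of the 203 (98.0%, 95.04 to 99.2%) the midpoint was within 1 kb of a start. The median distance was 170 bp (157 to 177), and 155 of the 199 midpoints (77.9%, 71.6 to 83.1%) were downstream of the start. Among the other pairs the corresponding values were 530 of 547 (96.9%, 95.1 to 98.1%), 165 bp and 81.3% (77.8 to 84.4%). A second coding gene had a boundary within 1 kb in 50 of the 257 pairs (19.5%, 15.1 to 24.7%) and in 143 of the 746 (19.2%, 16.5 to 22.1%). A long non-coding RNA gene lay under the vector peak in 37 pairs (14.4%, 10.6 to 19.2%), against 106 of the others (14.2%, 11.9 to 16.9%). In these respects the intervals of both sets overlapped.

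Sequence was not part of the choice. In windows of 250 bases before and 50 after the start, the median GC content was 67.0% (65.7 to 69.0%, 199 pairs) and the ratio of observed to expected CpG was 0.881 (0.853 to 0.919). The other pairs had 69.8% (68.7 to 71.3%) and 0.897 (0.880 to 0.911), with overlapping intervals. Over all 22198 windows of coding genes the medians were 62.3% and 0.737, so both sets lay at starts richer in GC and CpG than the typical coding gene. Matches to 8 short motifs were searched on both strands. The ETS family, with many activators of housekeeping genes, was searched as CCGGAA, and the GC box of SP factors as GGGCGG. NF-Y was searched by its CCAAT box, and the core promoter element of the TATA-binding protein as TATAAA. The E-box of MYC and USF factors was searched as CACGTG, and the cyclic AMP response element (CRE) as TGACGT. The letters for YY1 were ATGGCGG, and those for the respiratory factor NRF1 were GCGCATG. No motif contains another, though adjacent matches can share bases. SP matches occurred in 79.4% (73.2 to 84.4%) of the windows, against 85.3% (82.01 to 88.05%) in the other pairs and 56.3% in all coding windows. ETS matches occurred in 36.7% (30.3 to 43.6%), 30% (26.3 to 34.03%) and 21.2%. NF-Y matches occurred in 38.2% (31.7 to 45.1%), 30.9% (27.2 to 35.0%) and 34.7%, and TATAAA in 5.03% (2.75 to 9.002%), 2.83% (1.72 to 4.62%) and 9.47%. The E-box, CRE, YY1 and NRF1 letters occurred in 11.1%, 11.6%, 15.1% and 11.1% of the windows of the 257 pairs, and in 7.55%, 10.8%, 11.7% and 8.11% of those of the other pairs. Over all coding windows these 4 shares were 8.34%, 8.94%, 6.99% and 5.26%. The intervals of the 257 and of the other pairs overlapped for each of the 8 motifs. A match describes letters in a window and not a bound factor.

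**Figure D4:**
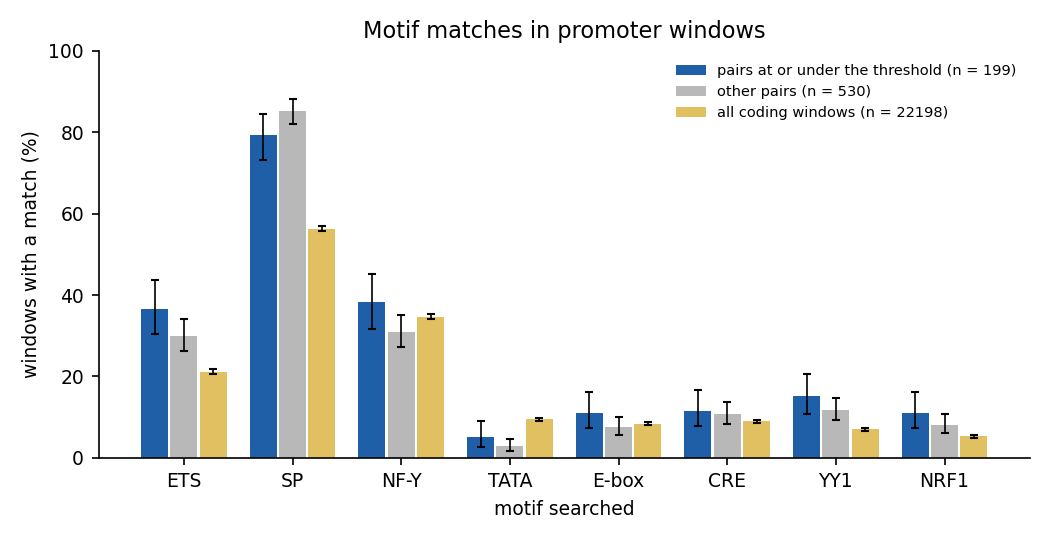
Share of promoter windows with a match to each of 8 short motifs (y axis, percent, bars from 0; error bars are 95% Wilson intervals) for the pairs at or under the threshold (blue), the other pairs (grey) and all coding windows (yellow). Blue and grey intervals overlap for each motif, as for SP with 79.4% and 85.3%.

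The share on chromosomes 8 and 9 was lower among the 257 than among the other pairs, by a margin that depended on the settings. Chromosomes 8 and 9, which hold a large part of the shared boundary peaks, had 57 of the 257 pairs (22.2%, 17.5 to 27.6%) and 249 of the other 746 (33.4%, 30.1 to 36.8%). Read by chromosome, 31 of 173 pairs on chromosome 8 (17.9%, 12.9 to 24.3%) and 26 of 133 on chromosome 9 (19.5%, 13.7 to 27.1%) were at or under the threshold, against 200 of 697 (28.7%, 25.5 to 32.2%) elsewhere. Among chromosomes with at least 35 pairs, the highest shares were on chromosomes 20 and 5. Of those with fewer pairs, chromosome 13 had 2 of 3 and chromosome 14 had 5 of 12. Chromosome 20 had 15 of 35 (42.9%, 27.98 to 59.1%), with EIF2S2, CDK5RAP1 and CHMP4B among its tallest. Chromosome 5 had 23 of 55 (41.8%, 29.7 to 55.0%), with THOC3, an mRNA export gene, at 46.5 and 49.2 scaled. SKP1, an adaptor of ubiquitin ligases on the same chromosome, had 40.6 and 39.6. Pairs on the same chromosome are not independent of each other, and these intervals do not allow for that. When the vector peak itself had to overlap the gene boundary, which left 260 pairs, the shares on chromosomes 8 and 9 were 39.1% and 38.3%, so the difference was then not seen. The intervals of both shares also overlapped at a threshold of 0.5 (22.7 to 31.02% against 29.7 to 37.3%) and without depth scaling (24.1 to 31.5% against 29.8 to 38.6%). The intervals of chromosomes 9, 20 and 5, each taken alone, overlapped that of the chromosomes other than 8 and 9.

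**Figure D5:**
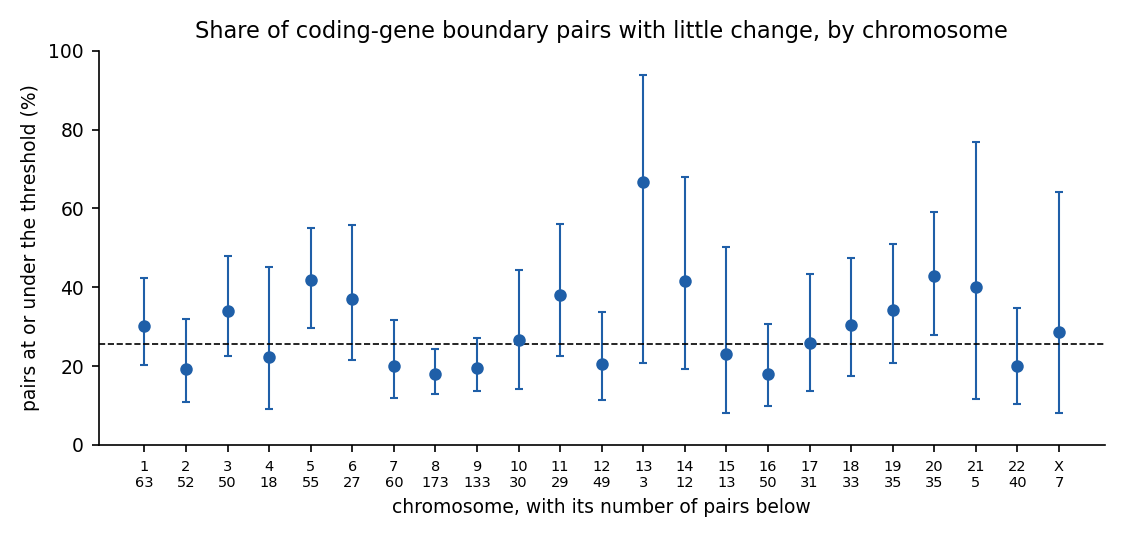
Percentage of coding-gene boundary pairs at or under the log2 ratio of 0.35 on each chromosome (points, bars are 95% Wilson intervals), with the number of pairs under each chromosome. The dashed line is the share over all pairs, 25.6%; chromosomes 8 and 9, with 173 and 133 pairs, lie below it and chromosomes 5 and 20 above.

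The local background, worked back from pileup and fold enrichment, had a median of 4.70 (4.03 to 5.000) under the vector peaks and 3.48 (3.33 to 4.16) under the APOC2 peaks of the 257 pairs, each in the units of its own table. Fold enrichment, the pileup over this background with 1 added to both, had medians of 5.28 (5.09 to 5.54) and 5.61 (5.33 to 6.003), against 5.06 and 8.01 in the other pairs. It contains the pileup used in the choice, so its difference between the sets is not independent of that choice. By fold enrichment 33.5% of the 1003 pairs were at or under the same threshold, and 223 of the 257 were among them. AP1G1, an adaptor of clathrin coats, had the lowest log2 ratio of fold enrichment, -1.13, from 5.18 to 2.36. Its vector background was 4.93 against 8.32 for APOC2, and its log2 ratio of depth-scaled pileup was -0.24. The pair within 1 kb of FGF17 and DMTN had the highest, 0.84, with a vector background of 5.000 against 2.54 for APOC2. The APOC2 peak was the longer in 191 of the 257 pairs (74.3%), with median lengths of 276 bp (vector) and 368 bp (APOC2). In the other pairs it was longer in 702 of 746 (94.1%), with medians of 288 and 496 bp. How far this difference in length follows from the choice by pileup was not tested. The longest vector peaks of the set were at HNF4G (1310 bp), a nuclear receptor gene, CIBAR1 (1133 bp) and ZNF623 (947 bp), all on chromosome 8.

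The genes of the 257 pairs numbered 308, and 11 of them also had a pair above the threshold. Only genes with more than 1 pair could be in both sets, and their number is not given here. At UBE2W, a ubiquitin-conjugating enzyme gene, the pair at chromosome 8, 73878582 to 73878813, had pileups of 32.7 and 32.4 scaled. The neighbouring pair at 73879007 to 73879248 had 30.7 and 43.2. Near VPS35 and ORC6 on chromosome 16, the ratio on the log2 scale was 0.23 for the pair at 46689676 to 46689912, and 0.36 for that at 46688822 to 46689153. FAM120A had 2 pairs at or under the threshold and 1 above it, with a log2 ratio of 0.71. Assignment to either set was thus of peaks and not of genes.

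Genes were read against 15 lists, made by symbol with earlier results of these data known; they are described by counts and were not tested. Over all lists, 50 of 182 pairs were at or under the threshold (27.5%), close to the 25.6% of all pairs, and most lists were too small to be told from it. Among lysine demethylases and methyltransferases, 3 of 5 pairs were. KDM5A and KDM5C, which demethylate histone H3 lysine 4, had log2 ratios of 0.15 and -0.46, and KDM4B, which acts on lysine 9, had -0.01, with pileups of 32.7 and 32.4 scaled. KDM4A and KDM3B were above the threshold with 0.49 and 0.61. Among proteasome genes 3 of 6 were, namely PSMD8 (0.28), PSMD14 (0.03) and PSMC2 (0.07). The others, PSMA7, PSMD2 and PSMD5, had 0.84, 0.74 and 0.96.

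In the cell cycle list 6 of 14 pairs were at or under the threshold, and their median over all 14 was 0.57. CDK5RAP1 had pileups of 42.6 and 43.2 scaled, CDKN2AIP 39.6 and 50.4, and CDC20, an activator of the anaphase-promoting complex, 25.7 and 32.4. CCNT1, the cyclin of P-TEFb, which RN7SK RNA inhibits, had 29.7 and 31.2. CCNO had the lowest ratio of the list, -0.34. Membrane trafficking genes gave 6 of 20, with RAB5B at 39.6 and 49.2 scaled and VPS37A at 37.6 and 37.2. Ubiquitin genes gave 4 of 9, splicing genes 3 of 8 and mitochondrial ribosome genes 3 of 8, with SNRPA1, HNRNPA0 and MRPL36 the tallest, the latter sharing its peak with NDUFS6 of respiratory complex I.

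Lists below the overall share were cytosolic ribosome genes with 2 of 13, oxidative phosphorylation genes with 2 of 14, solute carriers with 2 of 19 and TMEM genes with 3 of 19. RPS15 had pileups of 47.5 and 52.8 scaled, and RPL19 had 27.7 and 22.8. The remaining 11 ribosomal pairs, RPL8 with 1.02 and RPL35 with 0.81 among them, were above the threshold. UQCRB, a subunit of respiratory complex III, had 24.7 and 21.6. SLC30A6, a zinc transporter gene, had 37.6 and 37.2, and TMEM203 had 44.5 and 56.4. Zinc finger genes gave 12 of 41 (29.3%), led by ZNF786 and ZNF623. Translation factors gave 2 of 7, with EIF2S2 and EIF2B4, tRNA synthetases 1 of 2, with HARS1 and HARS2 at a shared boundary, and histone genes 1 of 1, with H4C16.

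Of 17 genes tied to PHF8 or to its reported roles, 4 had a shared boundary pair and 3 of these were at or under the threshold, against 25.6% of all 1003 pairs, a number too small to be read against that share. Besides KDM5C and CDC20, this was PHF2, a demethylase of the same subfamily as PHF8, with pileups of 27.7 and 30.03 scaled and a log2 ratio of 0.12 (-0.72 to 0.95). NOTCH1 was above it with 31.7 and 43.2 scaled and a log2 ratio of 0.45 (-0.28 to 1.18). No shared pair was at a boundary of E2F1, ZNF711, HCFC1, SETD1A, RBL2, CCNB1, PLK1, JARID2, SNAI1, FOXA2, KDM7A, PHF8 or APOC2, and KDM7A had 2 APOC2 peaks there without a vector peak.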

How the data were processed

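PHF8 ChIP-seq peak tables were used for 2 libraries, vector and APOC2, with 1 library per condition, grouped by the treatment in the labels. Bowtie2 2.2.9, MACS2 2.0, HOMER and hg38 are named in the submitters' processing notes, and the control library, thresholds and treatment of duplicate reads are not given in the sources used here. The tables held 4015 and 8928 peaks. Per the file headers, the deposited values are the pileup signal at each summit, the fold enrichment ratio over local background, and 2 columns whose names were lost and which hold -log10 p and -log10 q by their place and values. Read totals were not used, so absolute depth is unknown. The step of the vector pileups was 0.98953, which 99.8% of them follow and which was taken as 1 fragment. The spacing that best described the APOC2 backgrounds was 0.832, which only 63.9% of the backgrounds examined follow.

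Peaks were paired by longest overlap, each used once. Boundaries came from 20052 protein-coding RefSeq genes (GRCh38.p14). Local background was computed as (pileup + 1) / fold enrichment - 1. Shares carry 95% Wilson and medians 95% order-statistic intervals. Pairing and intervals were tested on simulated data. The analysis used Python 3.11.15, pandas 2.3.3 and scipy 1.17.1. The members and lists were chosen with earlier results of these data known. Named pairs are the 8 tallest, the 8 of lowest ratio, 3 on either side of the threshold, the 3 longest, and at most 2 genes a list by vector pileup. All other names were picked after their values were seen, among them the non-coding RNA genes, AP1G1, FGF17, UBE2W, VPS35, TBC1D12, THOC3, SKP1, CHMP4B and the further genes given for a list. Alternatives were other thresholds, measures, overlaps, windows and q-values.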

Additional observations from a re-analysis of the deposited data

How the results depend on the processing

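The 257 pairs and what they share were recomputed under 11 alternatives, of which the depth factor estimated from the table, the omission of chromosomes 8 and 9 and all values on RNA genes were chosen after seeing the data. Of 112 recomputed values, 95 stayed within the interval of the reported value, or within 1.5 times for a count, and 17 did not. The number of pairs was 164 at a threshold of 0.2, 428 at 0.5, 554 when pileup was not scaled by depth, and 64 when the vector peak had to overlap the boundary. With the estimated depth factor it was 255 and with fold enrichment 336. The median depth-scaled APOC2 pileup was 27.6 at 0.2, 34.8 at 0.5 and 33.6 by fold enrichment, and the median APOC2 fold enrichment was 5.32 at 0.2 and 6.07 at 0.5. A higher threshold admits pairs of higher APOC2 pileup by construction, and the cause of the move by fold enrichment was not tested. The median APOC2 background was 4.16 at 0.5 and 4.16 by fold enrichment, and the median APOC2 length was 411 bp (410.5) by fold enrichment. Pairs at genes of the lists numbered 86 at 0.5, 107 without depth scaling and 17 with direct overlap. Direct overlap gave 39.1% on chromosomes 8 and 9, and the cause was not tested. It gave 0 RNA genes, as none of the 4 vector peaks over RNA genes reached a boundary of a coding gene. A q-value of at most 0.001, an overlap of 50% of both peaks, a 3 kb window, the ratio without the added 1 and the omission of chromosomes 8 and 9 left the values recomputed under them inside those tolerances. The number of pairs was 241, 219, 278 and 298 under the first 4 of these. The share on chromosomes 8 and 9 was lower than in the other pairs under every alternative that recomputed it except direct overlap, though at 0.5 (26.6% against 33.4%) and without depth scaling (27.6% against 34.1%) the intervals of both shares overlapped. No paired analysis was possible because each condition had 1 library, and for the same reason no replicate could be left out.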
